A study of Homo sapiens with 12 samples.

Results

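The response of Hs 578T cells to the loss of cystine (Cyss) was compared, gene by gene, between cells that overexpress NRF2 and control cells. Cystine is the oxidized dimer in which cultured cells take up cysteine. Hs 578T is an established TNBC line of mesenchymal type. All 12 of the 12 libraries of the series entered, 3 in each of 4 groups: cells transduced with a lentiviral vector for GFP (GFP cells) or for full-length NRF2 (NRF2 cells), each kept for 8 h in medium with 0.8 mM l-cystine or without it (w/o Cyss). All groups shared the parental line, a medium with added methionine, glutamine and fetal bovine serum, and the transduction itself. The GFP cells are the vector control, and the results concern 1 cell line. Reads counted on genes numbered from 27334061 to 44734611 per library. The measure described is the difference between responses on the log2 scale, that is, the log2 fold change w/o against with Cyss in NRF2 cells minus the same in GFP cells, called here the interaction. It was tested for 17674 genes with edgeR's quasi-likelihood test, and a gene was called at a Benjamini-Hochberg adjusted p below 0.1. The labels number the 3 libraries of a group but do not say whether they came from separate cultures, so p-values measure the spread between these libraries, which may be technical.

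NRF2 is a transcription factor that is normally held at a low level by KEAP1 and degraded. When it escapes, it drives detoxification, glutathione and NADPH genes through antioxidant response elements (AREs). Loss of an amino acid is sensed separately, by the kinase GCN2, which leads to translation of ATF4 and to the transcription of amino acid transporters, biosynthetic enzymes and stress genes. Cysteine is both the limiting amino acid of glutathione and a building block of protein. The ERK pathway, which growth factor receptors feed, induces immediate early transcription factors within minutes and then its own inhibitors, the Sprouty, SPRED and DUSP proteins.

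The overexpressed gene itself, NFE2L2 (chromosome 2, 178083395 to 178257484, GRCh37), had normalized read counts of 3834, 3662 and 3860.4 in GFP cells with Cyss and 4682, 4598 and 4489 w/o Cyss, against 6567, 6599 and 6924 in NRF2 cells with Cyss and 7258, 8113 and 8448 w/o Cyss. Every library of NRF2 cells was above every library of GFP cells, and endogenous and exogenous transcripts were counted together. The count rose w/o Cyss by 0.28 and 0.25 on the log2 scale, with an interaction of -0.03 (standard error 0.0705, adjusted p = 0.818). Of the 12 mesenchymal markers all were tested and together they made up 50033 to 52806 CPM (counts scaled to a common library total) in each library, although the labels call the line epithelial. The summed luminal epithelial markers lay between 47.0 and 66.6 CPM, with EPCAM, CLDN3, CLDN7, KRT19, GRHL2 and ESRP1 under the filter on low counts, and the 4 blood and endothelial markers tested at 3.08 to 4.41.

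A pair of libraries stood apart from their groups. On the first principal component, which held 26.8% of the variance and on which NRF2 cells w/o Cyss lay between 27.1 and 30.2, replicate 3 of GFP cells w/o Cyss was at 3.73 and replicates 1 and 2 at -12.0 and -9.07. Replicate 1 of NRF2 cells w/o Cyss had the largest share of reads outside genes, 7.84% against 5.82 to 6.69% elsewhere. Of 227 called genes chosen by rule, 213 kept their call with both libraries left out. Values without them are given beside a part of the results. Leaving out this pair was decided after the data were seen. Replicate 3 of GFP cells w/o Cyss lay toward the NRF2 cells w/o Cyss. Its removal therefore tends to enlarge the interaction of genes that follow this component. Larger values without the pair are thus no added support.

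The interaction was higher in NRF2 cells for 1585 genes (8.97% of those tested) and lower for 988 (5.59%), and 4299 genes had an unadjusted p under 0.05. The median over all genes was -0.01. With both libraries that stood apart left out, 1835 and 1129 genes were called, and 2139 of the 2573 genes called from all libraries were called in the same direction. Without GFP w/o Cyss replicate 2 alone, the counts were 937 and 410, and without NRF2 w/o Cyss replicate 3 they were 1970 and 1606. The median size of a called interaction was 0.33, 1346 genes exceeded 0.32 and 151 exceeded 1.

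The response of GFP cells to Cyss deprivation was called for 497 genes up and 488 down (5.57% of genes in either direction), and that of NRF2 cells for 2801 up and 2668 down (30.9%). Called genes were sorted by the sign and size of their fitted responses. An amplified response, with the same fitted sign in both populations and larger in NRF2 cells, was found for 903 genes. For most of them the response was called in NRF2 cells only (503 of 583 that rose and 284 of 320 that fell). In those the sign in GFP cells rests on a response that was not called. A blunted response, of the same sign but smaller in NRF2 cells, was found for 42. In the remaining 1628 genes the fitted signs differed. In most of these the response of GFP cells was not called, and in 25 genes both responses were called with opposite signs. Of the 1585 genes with a higher interaction, 583 were amplified increases, 13 were blunted decreases, and 989 differed in sign. By definition, the last had a positive response in NRF2 cells. Of the 988 genes with a lower interaction, 320 were amplified decreases, 29 were blunted increases, and 639 differed in sign, by definition with a negative response in NRF2 cells.

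The genes with the smallest adjusted p among those with a higher interaction were SLC7A2, SOX9, RNF152, NEDD4L, HHIP, INHBA, ADAM19, FOXP1, BMP2 and CBLB. SLC7A2 (chromosome 8, 17354597 to 17428082), a transporter of cationic amino acids, had normalized counts of 3105, 2822 and 2989.7 in GFP cells with Cyss, 2807, 3362 and 3812 in GFP cells w/o Cyss, 2780.0, 2726 and 2715 in NRF2 cells with Cyss and 6152, 6398 and 6743 in NRF2 cells w/o Cyss. Only the last 3 libraries stood out, all of them above the other 9. The interaction was 1.07 (standard error 0.104, adjusted p = 6.19e-05), from a response of 0.16 that was not called in GFP cells (adjusted p = 0.268) and 1.23 in NRF2 cells.

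SOX9 (chromosome 17, 70117161 to 70122557), a transcription factor of progenitor cells, showed the same form. Its counts were 651, 602 and 570.2 in GFP cells with Cyss, 579.6, 603 and 683 w/o Cyss, 619.8, 584 and 598 in NRF2 cells with Cyss and 1150.3, 1094 and 1063 w/o Cyss, so that 9 libraries lay between 570.2 and 683 and the other 3 above 1000. Its interaction was 0.84 (standard error 0.0954, adjusted p = 0.000214). INHBA (chromosome 7, 41706766 to 41745432), the activin A subunit, had 15540.0, 13839 and 14500.0 in GFP cells with Cyss, 16111, 16951 and 19750.0 in GFP cells w/o Cyss, 13602, 14045 and 13227 in NRF2 cells with Cyss and 26045, 27033 and 26551 in NRF2 cells w/o Cyss. It rose in both populations, by 0.27 and 0.96, and the libraries of NRF2 cells w/o Cyss did not overlap any others (interaction 0.69, standard error 0.0835, adjusted p = 0.000234).

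BMP2 (chromosome 20, 6748333 to 6760893), another ligand of the TGF-beta family, had 528, 522 and 524 in GFP cells with Cyss, 479, 574 and 862 w/o Cyss, 511, 532 and 498 in NRF2 cells with Cyss and 1644, 1782 and 2246 w/o Cyss. Within GFP cells w/o Cyss, replicate 3 was above both other replicates, and all NRF2 libraries w/o Cyss were higher still. The interaction of BMP2 was 1.60 (standard error 0.204, adjusted p = 0.000364), or 1.97 without the pair of libraries that stood apart. The rest of these genes had interactions from 0.66 (FOXP1, a forkhead repressor) to 0.98 (RNF152, a ubiquitin ligase that restrains mTORC1 signalling). They included the ubiquitin ligases NEDD4L at 0.73 and CBLB at 0.66, the latter a negative regulator of receptor tyrosine kinases, the Hedgehog inhibitor HHIP at 0.83 and the metalloproteinase ADAM19 at 0.71. Exons of HHIP, INHBA, ADAM19, FOXP1, NEDD4L and CBLB overlap exons of other annotated genes, and the counting did not separate strands.

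The largest higher differences, among called genes with at least 50 normalized counts in the highest group and clone names left out, were those of ESM1, ANGPTL4, PTGS2, HSD3BP5, EGR1, CDCP1, SERPINB2, BMP2, CXCL3 and DUSP6. ESM1, a proteoglycan secreted by endothelial and tumor cells, had 58.8, 46.4 and 66.8 in GFP cells with Cyss, 37.2, 80.7 and 187 in GFP cells w/o Cyss, 58.2, 43.2 and 54.7 in NRF2 cells with Cyss and 366, 538 and 603 in NRF2 cells w/o Cyss. The 3 libraries of GFP cells w/o Cyss ranged widely, and those of NRF2 cells w/o Cyss were above all of them (interaction 2.45, standard error 0.522, adjusted p = 0.00632). ANGPTL4, a secreted inhibitor of lipoprotein lipase, had 102, 147 and 219.9 in NRF2 cells w/o Cyss against 15.1, 28.8 and 63.6 in GFP cells w/o Cyss (interaction 2.13, standard error 0.576, adjusted p = 0.0268). With the pair of libraries that stood apart left out, the interactions were 3.44 for ESM1 and 3.08 for ANGPTL4.

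SERPINB2, an inhibitor of urokinase, had 1447, 1248 and 1194 in GFP cells with Cyss, 1188, 1645 and 2993 w/o Cyss, 1554, 1405 and 1485 in NRF2 cells with Cyss and 5216, 6833 and 8155 w/o Cyss (interaction 1.60, standard error 0.298, adjusted p = 0.00252, or 2.22 without the pair that stood apart). CDCP1, a transmembrane substrate of Src kinases, differed in form. Its counts were 42.7, 41.9 and 45.7 in GFP cells with Cyss, 35.2, 19.6 and 35.1 in GFP cells w/o Cyss, 40.0, 33.7 and 44.8 in NRF2 cells with Cyss and 75.1, 88.0 and 92.6 in NRF2 cells w/o Cyss, with a fitted response of -0.52 in GFP cells that was not called (adjusted p = 0.186) and a rise of 1.11 in NRF2 cells. HSD3BP5, a pseudogene of the hydroxysteroid dehydrogenases whose reads may be shared with its relatives, had an interaction of 1.77 and at most 87.6 normalized counts.

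Among the lists of genes by function, the feedback genes of the ERK pathway had the largest share called, with 16 of 18 higher and 0 lower. Over all genes, 8.97% were called higher and 5.59% lower, the background for this and every later list count. Their median interaction was 0.75, from a median response of 0.13 in GFP cells and 0.70 in NRF2 cells, beside -0.01, 0.00 and -0.01 over all genes. Expressed per library as the median log2 level of the members relative to GFP cells with Cyss, the list lay at -0.04, -0.06 and 0.29 in GFP cells w/o Cyss, 0.00, -0.03 and -0.02 in NRF2 cells with Cyss and 0.59, 0.76 and 0.72 in NRF2 cells w/o Cyss. Replicate 3 of GFP cells w/o Cyss was thus between its own group and the NRF2 libraries. With both libraries that stood apart left out, 16 members were called higher and the median was 0.90.

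DUSP6 (chromosome 12, 89741012 to 89746278), the phosphatase that inactivates ERK in the cytoplasm, had 862, 806 and 753 in GFP cells with Cyss, 789, 1079 and 2291 w/o Cyss, 833, 809 and 791 in NRF2 cells with Cyss and 3172, 4224 and 4987 w/o Cyss. It was called up in both populations (adjusted p = 0.0928 in GFP cells), and every library of NRF2 cells w/o Cyss was above every other library (interaction 1.57, standard error 0.343, adjusted p = 0.00745, or 2.31 without the pair that stood apart). The 4 members with the smallest adjusted p were PHLDA1 at 0.93, SPRED2 at 0.82, CCND1 at 0.68 and SPRY2 at 1.31. SPRED2 and SPRY2 encode inhibitors of RAS and RAF signalling, and CCND1 encodes cyclin D1, the ERK-responsive partner of CDK4. CCND1 had 14816, 15828 and 19634 in GFP cells w/o Cyss and 26362, 26545 and 28570.0 in NRF2 cells w/o Cyss, against 17103 to 18572 in the 6 libraries with Cyss. SPRY2 had 553, 701 and 970.2 in GFP cells and 1424, 1743 and 2048 in NRF2 cells w/o Cyss, against 514 to 567 with Cyss.

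Upstream of that pathway, the EGF receptor and its ligands and regulators had 4 of 9 genes called higher, 0 called lower and a median of 0.41. EGFR (chromosome 7, 55086710 to 55279321) had 11342, 10373 and 10441 in GFP cells with Cyss, 10520.0, 10438 and 11984 in GFP cells w/o Cyss, 10477, 10380.0 and 9856 in NRF2 cells with Cyss and 15327, 15011 and 16289 in NRF2 cells w/o Cyss. Its response in GFP cells was 0.03 (adjusted p = 0.797), and in NRF2 cells it rose by 0.60, with an interaction of 0.57 (standard error 0.0755, adjusted p = 0.000445). The ligand HBEGF had an interaction of 1.14, and the inhibitors LRIG1 and ERRFI1 of 0.41 and 0.82. ERRFI1 rose in GFP cells too, by 0.76, and by 1.58 in NRF2 cells.

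Immediate early genes, which code mostly for transcription factors of the EGR, FOS and JUN families, were called higher in 15 of 28 and lower in 1, with a median interaction of 0.39. Without the pair that stood apart, 15 were higher and 3 lower, with a median of 0.54. EGR1 (chromosome 5, 137801168 to 137804992) had the largest difference of the list. Its counts were 167, 153 and 193 in GFP cells with Cyss, 235, 273 and 449 w/o Cyss, 286, 300.2 and 278 in NRF2 cells with Cyss and 1866, 1608 and 2020.3 w/o Cyss. NRF2 cells with Cyss were above GFP cells with Cyss, and NRF2 cells w/o Cyss were above every other library by more than the whole range of the rest (interaction 1.77, standard error 0.229, adjusted p = 0.000393). IER3, MCL1 and IER2 followed by adjusted p, with interactions of 0.84, 0.46 and 0.65. The exception was KLF4, which rose by 0.71 in GFP cells and 0.42 in NRF2 cells (interaction -0.29, standard error 0.0818, adjusted p = 0.0333, not called without GFP w/o Cyss replicate 2 or NRF2 with Cyss replicate 1).

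Serum and ERK signals reach EGR1 through CArG boxes, the binding sites of the serum response factor. The RefSeq promoter window of EGR1 (250 bases before to 50 after the transcription start, GRCh38.p14) holds a pair of matches to the CArG box, shown here because EGR1 led the list, with the match in capitals.
EGR1, 105 bases before the start, chr5:138465364-138465393, strand +: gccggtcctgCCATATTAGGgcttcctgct
EGR1, 83 bases before the start, chr5:138465386-138465415, strand +: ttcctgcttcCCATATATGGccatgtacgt
The windows of FOS and IER2 held no match, which says only that these letters are not within these 300 bases. Among the RefSeq windows of genes tested, 10923 in number, 1.15% held a CArG box, as did 1.15% of the 1218 windows of higher genes and 1.29% of the 698 of lower genes. That of EGR1 was the only 1 of 20 windows of immediate early genes to hold it, and 0 of 11 of ERK feedback genes did.

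Cytokines, chemokines and the prostaglandin synthase PTGS2 formed the list with the largest median interaction, 1.15, with 8 of 14 members called higher and 0 lower. The median response was 0.58 in GFP cells and 1.62 in NRF2 cells. By library the list lay at 0.15, 0.16 and 0.92 in GFP cells w/o Cyss and 1.5, 1.73 and 2.08 in NRF2 cells w/o Cyss relative to GFP cells with Cyss, so that replicate 3 again stood above the other GFP libraries. Without the pair that stood apart, the median was 1.47, with 9 members called higher and 1 lower. PTGS2 (chromosome 1, 186640923 to 186650054), the inducible cyclooxygenase, had 279.6, 228 and 218 in GFP cells with Cyss, 355, 483 and 778 in GFP cells w/o Cyss, 228, 193 and 172 in NRF2 cells with Cyss and 1433, 1693 and 1959.6 in NRF2 cells w/o Cyss. The GFP libraries w/o Cyss did not overlap those with Cyss, nor did any overlap the NRF2 libraries w/o Cyss (interaction 1.95, standard error 0.288, adjusted p = 0.00057, or 2.43 without the pair that stood apart).

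IL1B had 207, 195 and 221 in GFP cells with Cyss, 304, 339 and 407 in GFP cells w/o Cyss, 188, 194 and 209 in NRF2 cells with Cyss and 631, 749.9 and 917 in NRF2 cells w/o Cyss, with an interaction of 1.21 (standard error 0.18, adjusted p = 0.000623). IL6 had 371, 391 and 378 in GFP cells with Cyss, 441, 593 and 694 in GFP cells w/o Cyss, 369.9, 356 and 363 in NRF2 cells with Cyss and 952, 1170.4 and 1549.6 in NRF2 cells w/o Cyss, with an interaction of 1.16 (standard error 0.212, adjusted p = 0.0022). Both cytokines rose w/o Cyss in both populations, and more in NRF2 cells. LIF, a cytokine of the same receptor family as IL6, had an interaction of 1.25, and the neutrophil chemokine CXCL3 one of 1.60.

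Among NF-kappaB subunits and their feedback genes 8 of 17 were called higher and 0 lower, with a median of 0.24. ICAM1, an adhesion molecule for leukocytes, had 248, 233 and 239 in GFP cells with Cyss, 219, 309 and 293 w/o Cyss, 219.5, 260.1 and 261 in NRF2 cells with Cyss and 551, 593 and 799 w/o Cyss. Its 9 libraries outside the last group overlapped, and the interaction was 1.20 (standard error 0.189, adjusted p = 0.000837). The subunit genes NFKB1 and RELB had interactions of 0.35 and 0.51, and BIRC3, an inhibitor of apoptosis that the pathway induces, one of 0.77.

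The promoter windows of a few members of these lists are shown because these factors are known to act on them. Capitals mark a match to the NF-kappaB site (CXCL3, BIRC3) or to the AP-1 site TGANTCA (IL8), searched on both strands, and IL8 is the chemokine also called CXCL8. The match in CXCL3 overlaps a further match 1 base on.
CXCL3, 79 bases before the start, chr4:74038749-74038778, strand -: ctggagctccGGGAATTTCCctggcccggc
BIRC3, 199 bases before the start, chr11:102317275-102317304, strand +: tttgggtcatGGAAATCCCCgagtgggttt
BIRC3, 135 bases before the start, chr11:102317339-102317368, strand +: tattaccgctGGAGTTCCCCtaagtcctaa
IL8, 137 bases before the start, chr4:73740421-73740450, strand +: aggaagtgtgaTGACTCAggtttgccctga
The windows of ICAM1 and PTGS2 held no match to the NF-kappaB site. Over all genes, 12.7% of windows held that match, beside 13.6% of higher and 15.3% of lower genes, and the AP-1 site was held by 4.88%, 5.42% and 4.58%.

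Several lists of genes that act outside the cell had more calls on the higher than on the lower side. The same held over all genes, with 8.97% higher and 5.59% lower. Collagens did not share this, with 3 higher and 3 lower of 32. Integrins and laminins had 10 of 33 called higher and 1 lower, led by the collagen receptor subunit ITGA2, which had 6657, 6841 and 10326 in GFP cells w/o Cyss and 14591, 16539 and 18391 in NRF2 cells w/o Cyss (interaction 1.03, standard error 0.16, adjusted p = 0.000778). LAMB3, a laminin chain, had an interaction of 0.53, and the laminin receptor subunit ITGA3 one of 0.55. After the correction for length and GC content given with the transcript lengths, 6 integrin and laminin genes were called higher and 3 lower. Their median was then 0.01, beside 0.04 before it. Without GFP w/o Cyss replicate 2, 7 were called higher. Matrix metalloproteinases and TIMPs had 5 of 17 called higher and 0 lower. Collagenase MMP1 had 226, 258 and 419 in GFP cells w/o Cyss against 652, 818 and 1095 in NRF2 cells w/o Cyss (interaction 1.35, standard error 0.276, adjusted p = 0.00485, or 1.83 without the pair that stood apart), and the inhibitor TIMP3 an interaction of 0.39. The median of the metalloproteinase list was 0.01, near that of all genes.

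Hyaluronan genes were called higher in 4 of 12 and lower in 0. HAS2, the hyaluronan synthase, had 9965, 8867 and 9136 in GFP cells with Cyss, 8312, 10091 and 17047 in GFP cells w/o Cyss, 8102, 7480.2 and 7719 in NRF2 cells with Cyss and 22760.0, 28121 and 31090.0 in NRF2 cells w/o Cyss (interaction 1.47, standard error 0.232, adjusted p = 0.000837, or 1.95 without the pair that stood apart). CD44, the hyaluronan receptor, had an interaction of 0.41. Angiogenic and stress-secreted factors were called higher in 8 of 19 and lower in 0, with a median of 0.29, and included STC1 (stanniocalcin) at 1.57, FGF5 at 0.64, FGF2 at 0.61 and VEGFC at 0.54. Hypoxia-type and glycolysis genes were called higher in 8 of 31, among them HK2, the first enzyme of glycolysis, at 0.91 and the mitophagy receptor BNIP3L at 0.34, but their median of 0.03 was close to 0, and the number called higher was 5 without GFP w/o Cyss replicate 2. Among YAP and SRF targets there were 8 higher and 2 lower of 25, with AMOTL1 at 0.52 and NT5E at 0.47.

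The TGF-beta family divided, with 10 higher and 7 lower of 25. On the higher side were INHBA and BMP2, given above, and SMAD7, an inhibitory SMAD, at 0.40. On the lower side was INHBB, the activin B subunit, with 1202, 1160.0 and 1230.0 in GFP cells with Cyss, 995, 930.4 and 779 in GFP cells w/o Cyss, 1660.5, 1570.4 and 1659 in NRF2 cells with Cyss and 884, 705 and 692 in NRF2 cells w/o Cyss. INHBB fell in both populations, by 0.41 and 1.10 on the log2 scale, and further in NRF2 cells from a higher starting level (interaction -0.69, standard error 0.118, adjusted p = 0.00138). The lower calls of this list rested on particular libraries, with 2 remaining without GFP w/o Cyss replicate 1.

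The ID and HES genes, helix-loop-helix repressors of differentiation that BMP and Notch signals induce, were called lower in 5 of 8 and higher in 0, with a median of -0.48. ID3 (chromosome 1, 23884417 to 23885992) had 3937, 4293 and 3976 in GFP cells with Cyss and 4311, 4444 and 3452 w/o, and 3789, 3821 and 3840.5 in NRF2 cells with Cyss and 2527, 2402 and 2253 w/o. The libraries of GFP cells overlapped, with a response of 0.00 (adjusted p = 0.999), while NRF2 cells w/o Cyss were below all others (interaction -0.67, standard error 0.0989, adjusted p = 0.000563). ID1 and ID2 followed at -0.55 and -0.58, and HEY2 at -0.73.

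Nearly every ATF4 target was called w/o Cyss in both populations, in a list written with earlier results of these data known. Over all genes, 5.57% were called in the response of GFP cells and 30.9% in that of NRF2 cells. Of 48 ATF4 targets, 44 were called in the response of GFP cells and 46 in that of NRF2 cells, with median responses of 0.72 and 0.62. The interaction was called lower for 11 of them and higher for 4. All 11 lower and all 4 higher targets had fitted increases in both populations. By definition, the lower ones were then blunted and the higher ones amplified. The number called lower ranged from 5 (without GFP with Cyss replicate 3) to 17 (without NRF2 w/o Cyss replicate 3) as single libraries were left out. By library, relative to GFP cells with Cyss, the list lay at 0.68, 0.73 and 0.69 in GFP cells and 0.64, 0.69 and 0.72 in NRF2 cells w/o Cyss, and these overlapped.

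DDIT4 (chromosome 10, 74033678 to 74035794), an inhibitor of mTORC1, had the smallest adjusted p of all genes with a lower interaction. Its counts were 677, 713 and 648 in GFP cells with Cyss, 2678, 2788 and 2597 w/o Cyss, 704, 653 and 674 in NRF2 cells with Cyss and 1640.5, 1550.0 and 1685 w/o Cyss. Without Cyss the libraries of both populations were far above those with Cyss, and NRF2 cells were below GFP cells with no overlap. It rose by 1.98 and 1.26, with an interaction of -0.72 (standard error 0.0763, adjusted p = 0.000122).

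INHBE (chromosome 12, 57846106 to 57853063), a stress-induced activin subunit, had 463, 468 and 430.5 in GFP cells with Cyss, 952, 942 and 949 in GFP cells w/o Cyss, 446, 477 and 473 in NRF2 cells with Cyss and 649.7, 659 and 711 in NRF2 cells w/o Cyss, and rose by 1.06 and 0.53 (interaction -0.53, standard error 0.0839, adjusted p = 0.000871). The counts with Cyss overlapped between populations and those w/o Cyss did not. CHAC1, which degrades glutathione, rose by 2.09 and 1.80, with an interaction of -0.29 (standard error 0.0903, adjusted p = 0.0518) that lost its call in 6 of the 12 refits on 11 libraries and with both libraries that stood apart left out. The amplified targets included SLC7A1, a cationic amino acid transporter, at 0.39, and the death receptor TNFRSF10B at 0.54. TNFRSF10B had 4131, 4302 and 5005 in GFP cells and 5759, 6539.7 and 7164 in NRF2 cells w/o Cyss, and its response in GFP cells was not called (adjusted p = 0.349).

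Transcription factors and feedback genes of the integrated stress response had calls in both directions. PPP1R15A, the phosphatase subunit that reverses eIF2alpha phosphorylation, had an interaction of 0.44 and CEBPB, a dimer partner of ATF4, one of 0.39. JDP2 and NUPR1 had interactions of -0.28 and -0.32, which were not called without NRF2 with Cyss replicate 3 (and, for NUPR1, 3 other libraries). In all, 3 higher and 3 lower of 11 were called, and the number lower ranged from 0 (without NRF2 with Cyss replicate 3) to 5 (without NRF2 w/o Cyss replicate 3). The cytosolic aminoacyl-tRNA synthetases had median responses of 0.33 and 0.37 in GFP and NRF2 cells and 0 higher and 1 lower of 20, the latter AARS at -0.15, which lost its call in 9 of the refits on 11 libraries. Amino acid transporters were called higher in 8 of 22 and lower in 1, with SLC7A2 and SLC7A1 joined by SLC38A1 at 0.28 and SLC36A1 at 0.36. After the correction for length and GC content given with the transcript lengths, 6 transporters were called higher and 4 lower.

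The CHAC1 promoter window holds 1 match to the element bound by ATF4 with C/EBP proteins (TGATGNAA, in capitals, searched on both strands, here on the reverse one), and is shown because CHAC1 had the largest fitted response of GFP cells among the genes chosen by rule.
CHAC1, 209 bases before the start, chr15:40953251-40953280, strand +: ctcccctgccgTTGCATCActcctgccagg
Of the windows of 35 ATF4 targets, 20% held this match, beside 1.78% of all windows, 2.13% of those of higher and 1.86% of those of lower genes. The windows of DDIT3 and TRIB3 held none.

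Of the NRF2 targets, 10 had a fitted interaction above 0 and the others below. Of 39 tested, 18 were called in the response of GFP cells (5.57% over all genes) and 30 in that of NRF2 cells (30.9%), with medians of -0.20 and -0.31. The interaction was called lower in 15, of which 13 were amplified decreases, and higher in 3, with a median of -0.18. By library, the list lay at 0.27, 0.25 and 0.27 in NRF2 cells with Cyss, -0.20, -0.17 and -0.23 in GFP cells w/o Cyss and -0.09, -0.01 and 0.02 in NRF2 cells w/o Cyss, relative to GFP cells with Cyss. With Cyss the NRF2 libraries were above all GFP libraries, and w/o Cyss they were above the GFP libraries w/o Cyss. With both libraries that stood apart left out, 13 were called lower, and single left-out libraries gave from 4 (without GFP w/o Cyss replicate 2) to 19 (without NRF2 w/o Cyss replicate 3).

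AKR1C1 (chromosome 10, 5005445 to 5025475), an aldo-keto reductase whose reads may be shared with its close relatives, had 1227, 1212 and 1179 in GFP cells with Cyss, 1098, 1024 and 1032 in GFP cells w/o Cyss, 3044, 2971 and 2969.8 in NRF2 cells with Cyss and 1855, 1899.9 and 2020.3 in NRF2 cells w/o Cyss. It fell by 0.20 and 0.64 on the log2 scale, and NRF2 cells w/o Cyss stayed above every GFP library (interaction -0.44, standard error 0.0666, adjusted p = 0.000676). TRIM16L (chromosome 17, 18601311 to 18639431), a near copy of TRIM16 and therefore uncertain, had 1104, 1086 and 1103 in GFP cells with Cyss, 635, 572 and 513 in GFP cells w/o Cyss, 1571, 1594 and 1576 in NRF2 cells with Cyss and 570.5, 578 and 581 in NRF2 cells w/o Cyss. Here the populations differed with Cyss and overlapped w/o Cyss, with decreases of 0.93 and 1.45 (interaction -0.52, standard error 0.0862, adjusted p = 0.00114). AKR1B10, a reductase of retinal and lipid aldehydes, fell by 0.77 and 1.30 (interaction -0.53, standard error 0.153, adjusted p = 0.0366, not called without GFP w/o Cyss replicate 1 or 2). The carbonyl reductase CBR3 and biliverdin reductase BLVRB had interactions of -0.50 and -0.41.

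The 3 higher members were TXNRD1, FTH1 and UGDH (UDP-glucose dehydrogenase, at 0.25). TXNRD1 (chromosome 12, 104609557 to 104744085), thioredoxin reductase, had 12122, 11774 and 11956 in GFP cells with Cyss, 7357, 7614 and 8424 in GFP cells w/o Cyss, 15342, 15067 and 14802 in NRF2 cells with Cyss and 10750.0, 11831 and 12972 in NRF2 cells w/o Cyss. It fell by 0.62 and 0.35, a blunted decrease, and NRF2 cells w/o Cyss overlapped GFP cells with Cyss (interaction 0.27, standard error 0.0807, adjusted p = 0.0433, not called without GFP w/o Cyss replicate 1 or 2 or NRF2 with Cyss replicate 3). The ferritin chains FTH1 and FTL had interactions of opposite sign, 0.35 and -0.26, and both have pseudogenes that could share their reads. Not called were NQO1 at -0.16 (adjusted p = 0.127), GSR at -0.06 (0.681), GCLM at 0.27 (0.115), SRXN1 at 0.27 (0.285) and OSGIN1 at -0.20 (0.46). The study did not choose these genes by an interaction, so a missing call does not speak against its findings on them.

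The TXNRD1 window holds a pair of matches to the ARE core TGACNNNGC (in capitals, the second on the reverse strand), given as a member called on the higher side.
TXNRD1, 99 bases before the start, chr12:104215670-104215699, strand +: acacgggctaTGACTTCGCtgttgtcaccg
TXNRD1, 8 bases before the start, chr12:104215761-104215790, strand +: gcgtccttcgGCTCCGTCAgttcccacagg
Of the windows of 28 NRF2 targets 25.0% held this core, beside 15.0% of all windows, 16.7% of those of higher and 16.5% of those of lower genes. Those of SRXN1 and AKR1C1 held none. The share was larger, 31.4%, among 35 windows of ATF4 targets. It was 20% among 20 of immediate early genes, 18.2% among 11 of cytokines and 9.09% among 11 of ERK feedback genes.

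Redox lists share members with the NRF2 targets. Glutathione genes were called lower in 9 of 34 and higher in 1, ANPEP, a peptidase of glutathione breakdown products, at 0.47. GSTZ1 and GSTM1 had interactions of -0.50 and -0.32. The thioredoxin system had 8 of 23 lower and TXNRD1 higher, with nucleoredoxin (NXN) at -0.35 and peroxiredoxin PRDX5 at -0.22, which lost its call in 6 of the refits on 11 libraries and with both libraries that stood apart left out. GSTM1 lost it in 4. These counts changed by library, from 1 (without GFP with Cyss replicate 3) to 12 (without NRF2 w/o Cyss replicate 3) for glutathione and from 2 (without GFP w/o Cyss replicate 2) to 12 (without NRF2 w/o Cyss replicate 3) for thioredoxin genes. Without the pair that stood apart, 4 glutathione genes were called higher and 5 lower, as were 2 and 6 thioredoxin genes. Selenoprotein genes had 2 higher and 5 lower of 19, with SEPW1 at -0.43, and the number lower ranged from 2 (without GFP with Cyss replicate 3) to 7 (without NRF2 w/o Cyss replicate 3). Genes of heme and iron had 3 higher and 3 lower of 24, and the number lower was 7 without NRF2 w/o Cyss replicate 3. Ferroptosis genes had 2 higher and 5 lower of 22, with the lipid ligase ACSL4 at 0.47, and the number lower was 2 without GFP w/o Cyss replicate 1.

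NADPH enzymes had 0 higher and 4 lower of 18, with a median of 0.03. The lower calls of NADPH enzymes fell to 0 without GFP with Cyss replicate 1. After the correction for length and GC content given with the transcript lengths, 1 was called higher and 1 lower.

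Among the genes the study named from its RNA-seq, several fell w/o Cyss in GFP cells and had no called response in NRF2 cells. SLC5A3, a myo-inositol transporter that shares exons with MRPS6, had 5531, 4989 and 5059 in GFP cells with Cyss, 4143, 3823 and 4217 in GFP cells w/o Cyss, 5589, 5307 and 5014 in NRF2 cells with Cyss and 6205, 5322 and 5173 in NRF2 cells w/o Cyss. The GFP libraries w/o Cyss were below the other 9 (interaction 0.42, standard error 0.0894, adjusted p = 0.006). PPARA, a nuclear receptor of fatty acid oxidation, had the same form with an interaction of 0.32 (standard error 0.0734, adjusted p = 0.00972). With each library corrected for transcript length and GC content, the interactions of SLC5A3 and PPARA were 0.25 and 0.20. TGFBR3, GPR157, CHIC1 and SLC18A2 had interactions of 0.37, 0.46, 0.54 and 0.61 and were called as well. STXBP6 (-0.45), ANGPT1 (0.13), IGF2BP3 (0.19), POLR3G (0.39), FSD1L (0.39), SLC2A13 (0.37) and TNIP3 (0.19) were not, with adjusted p values from 0.129 to 0.378. The study chose all of these genes by other contrasts. They fell w/o Cyss in GFP cells and were higher in NRF2 than in GFP cells under either or both Cyss conditions. The interaction asks a different question, so a missing call does not speak against that choice. A higher call is no independent support either. The choice was made from these same libraries, and a low level in GFP cells w/o Cyss enters both it and the interaction. MGST1, at -0.20, was called from all 12 libraries but in only 1 of the 12 refits on 11 libraries, and not with both libraries that stood apart left out.

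Both responses were called with opposite signs in 25 genes, and those with the largest differences are described. NEAT1 (chromosome 11, 65190245 to 65213011), the noncoding RNA that builds paraspeckles, had 8476, 7924 and 8496 in GFP cells with Cyss, 11360.0, 10122 and 9128 in GFP cells w/o Cyss, 9241, 9235 and 9963 in NRF2 cells with Cyss and 8568, 7332 and 7169.6 in NRF2 cells w/o Cyss. It rose by 0.30 in GFP cells and fell by 0.30 in NRF2 cells, without overlap within either population (interaction -0.60, standard error 0.0986, adjusted p = 0.00111). RGS17, a regulator of G-protein signalling, had 297, 214 and 209 in GFP cells with Cyss, 166, 166 and 205 in GFP cells w/o Cyss, 268, 225 and 218 in NRF2 cells with Cyss and 347, 329 and 284 in NRF2 cells w/o Cyss. Its responses were -0.42 (adjusted p = 0.0979, close to the threshold) and 0.44 (interaction 0.86, standard error 0.184, adjusted p = 0.00681).

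HIPK2 (chromosome 7, 139246316 to 139477797), a kinase of the p53 and stress pathways, had 6387, 5797 and 5775 in GFP cells with Cyss, 5059.8, 4774 and 5769 in GFP cells w/o Cyss, 6431, 6087 and 5999 in NRF2 cells with Cyss and 9004, 7909 and 8222 in NRF2 cells w/o Cyss, with responses of -0.20 and 0.44 (interaction 0.64, standard error 0.0889, adjusted p = 0.000468). ZNF267, a zinc finger gene, had responses of -0.30 and 0.28, MEX3A of -0.25 and 0.16, and SMIM13 of -0.21 and 0.19. In the other direction SREBF1, the activator of lipid synthesis, had 0.23 and -0.21, LYSMD4 had 0.36 and -0.29, AMDHD2, an enzyme of hexosamine breakdown, had 0.24 and -0.18, and MEGF6 had 0.20 and -0.20. Of the 25, 17 were higher and 8 lower in NRF2 cells.

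The remaining genes with the smallest adjusted p on the lower side were ABHD4, a phospholipase of N-acyl ethanolamine synthesis, at -0.63, SLC12A8 at -0.69, GPR1, a chemerin receptor, at -0.61 and MXD3, a MYC antagonist, at -0.66. ABHD4 had 824, 861 and 907 in GFP cells with Cyss, 927, 827 and 749 in GFP cells w/o Cyss, 1053, 1010.1 and 1037 in NRF2 cells with Cyss and 652, 618 and 664 in NRF2 cells w/o Cyss, the 3 highest libraries being NRF2 cells with Cyss and the 3 lowest NRF2 cells w/o Cyss. Under the same minimum of 50 normalized counts and without clone names, the largest lower differences were those of ACKR3, PPP1R3C, ACTA2-AS1, UBE2QL1, PART1, MFI2-AS1, CORO6, OSR2, FHDC1 and IFIT1, from -1.41 to -0.94. ACKR3, a scavenger receptor for CXCL12, had 21.4, 19.5 and 14.1 in GFP cells with Cyss, 15.1, 13.8 and 15.3 in GFP cells w/o Cyss, 58.2, 48.5 and 49.2 in NRF2 cells with Cyss and 18.8, 9.21 and 18.9 in NRF2 cells w/o Cyss, so that it was high only in NRF2 cells with Cyss. UBE2QL1, a ubiquitin conjugating enzyme, had 257, 184 and 169 in GFP cells w/o Cyss against 117, 95.1 and 77.6 in NRF2 cells w/o Cyss. None of the 10 exceeded 257 normalized counts in any library (UBE2QL1 in GFP cells w/o Cyss), IFIT1 was not called without GFP w/o Cyss replicate 2 or NRF2 with Cyss replicate 1, and ACTA2-AS1, PART1, MFI2-AS1 and CORO6 share exons with genes on the other strand.

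Among genes of protein synthesis and respiration, the direction of the calls differed by list. Ribosome biogenesis genes, which act in the nucleolus, were called higher in 15 of 41 and lower in 0, with a median of 0.10. WDR43, a subunit of the small-subunit processome, had 3508, 3209 and 3303 in GFP cells with Cyss, 3306, 3253 and 3669 in GFP cells w/o Cyss, 3001, 3067 and 3070.4 in NRF2 cells with Cyss and 3922, 4167 and 4107 in NRF2 cells w/o Cyss (interaction 0.39, standard error 0.07, adjusted p = 0.00208), and the helicase DDX21 and the transcription factor MYC had interactions of 0.34 and 0.38. Cytosolic ribosomal protein genes were called lower in 12 of 79 and higher in 0, with a median of -0.16, and mitochondrial ribosomal protein genes had 1 higher and 7 lower of 75.

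Nuclear genes of the respiratory chain were called lower in 19 of 80 and higher in 0, with a median of -0.18. NDUFB1, a subunit of complex I, had 749.8, 767 and 770.5 in GFP cells with Cyss, 710.5, 783 and 763 in GFP cells w/o Cyss, 736, 784 and 712 in NRF2 cells with Cyss and 543, 614 and 616 in NRF2 cells w/o Cyss (interaction -0.31, standard error 0.0883, adjusted p = 0.0341, not called without GFP w/o Cyss replicate 2). The mitochondrially encoded subunits were called higher in 5 of 13 and lower in 0, with a median of 0.22. MT-CYB, of complex III, had 24448, 24041 and 26467 in GFP cells with Cyss, 28337, 26657 and 26844 in GFP cells w/o Cyss, 22667, 23140.0 and 23229 in NRF2 cells with Cyss and 34492, 31471 and 29259 in NRF2 cells w/o Cyss (interaction 0.34, standard error 0.0733, adjusted p = 0.00728). Proteasome genes had 2 higher and 11 lower of 47, with PSMA5 at -0.28 and the activator PSME4 at 0.26.

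The number of calls in these lists depended on single libraries. For cytosolic ribosomal proteins the number called lower ranged from 1 (without GFP with Cyss replicate 1) to 54 (without NRF2 w/o Cyss replicate 3), for nuclear respiratory genes from 1 (without GFP w/o Cyss replicate 2) to 52 (without NRF2 w/o Cyss replicate 3), for mitochondrial ribosomal proteins from 0 (without GFP with Cyss replicate 1) to 21 (without NRF2 w/o Cyss replicate 3) and for the proteasome from 2 (without GFP w/o Cyss replicate 1) to 18 (without NRF2 w/o Cyss replicate 3). Ribosome biogenesis genes called higher ranged from 7 (without GFP w/o Cyss replicate 2) to 20 (without GFP w/o Cyss replicate 3), and mitochondrially encoded genes from 2 (without GFP w/o Cyss replicate 2) to 9 (without GFP with Cyss replicate 2). With both libraries that stood apart left out, 4 cytosolic and 4 mitochondrial ribosomal protein genes, 9 nuclear respiratory genes and 6 proteasome genes were called lower, and 23 ribosome biogenesis and 4 mitochondrially encoded genes higher. By library, the ribosomal proteins lay at -0.27, -0.11 and 0.01 and the nuclear respiratory genes at -0.32, -0.17 and -0.06 in replicates 1, 2 and 3 of NRF2 cells w/o Cyss, relative to GFP cells with Cyss. In replicate 3 the ribosomal proteins were within the range of the other groups.

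**Figure D1:**
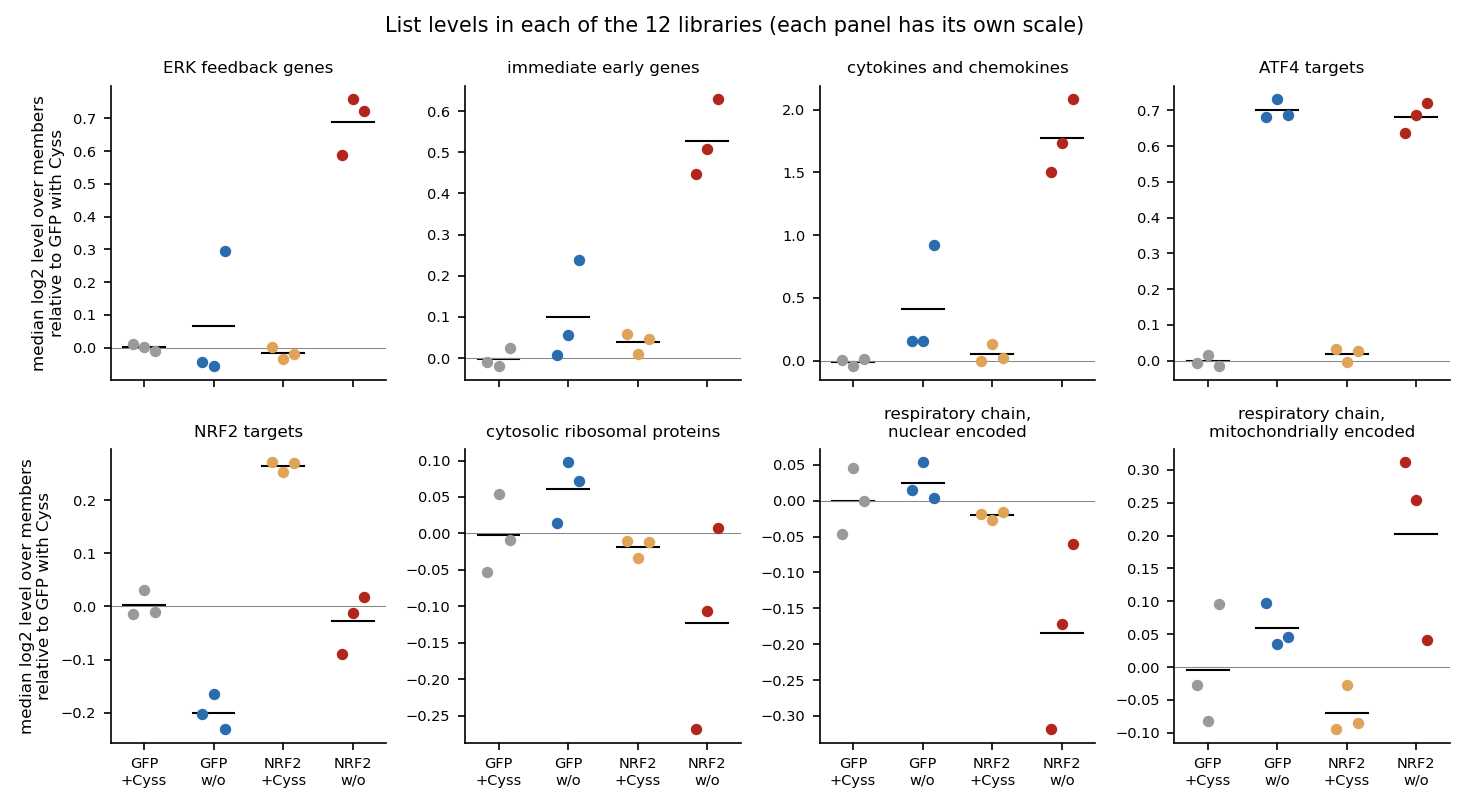
Median over the tested members of the log2 normalized count, relative to the mean of GFP cells with Cyss, for 8 gene lists in each library, with 3 points per group and a bar at their mean; each panel has its own y scale. Replicate 3 of GFP cells w/o Cyss lies above its group for ERK feedback genes, immediate early genes and cytokines, and the 3 libraries of NRF2 cells w/o Cyss are spread for ribosomal proteins and respiratory genes.

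The interaction moved with the length of the transcript. Across the 14745 genes with a known length, Spearman's rho between transcript length and the interaction was 0.29, and between GC content and the interaction -0.18, given as descriptions since genes are not independent and share the same libraries. In the quintile of genes with the shortest transcripts, up to 1849 bases, 2.17% were called higher and 8.60% lower, with a median interaction of -0.10. In the quintile with the longest, from 6045 bases, 23.0% were called higher and 2.65% lower, with a median of 0.10. The same rho was -0.18 between length and the response of GFP cells and 0.19 between length and the response of NRF2 cells. The median length was 5638 bases for higher genes, 2728 for lower genes and 3432 for genes not called. In replicates 1, 2 and 3 of NRF2 cells w/o Cyss, the shortest quintile lay at -0.15, -0.07 and -0.005 and the longest at 0.08, 0.03 and 0.004, relative to GFP cells with Cyss. In GFP cells w/o Cyss the order was the opposite, with the shortest quintile at 0.02, 0.06 and 0.02 and the longest at -0.02, -0.07 and -0.04. The libraries with Cyss also spread, from -0.03 to 0.03 for the shortest and from -0.05 to 0.03 for the longest quintile.

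When each library was corrected for its trend on length and on GC content, an alternative chosen after seeing the data, 1600 genes were called higher and 1225 lower, 1989 of them as before. The part of length and GC content in each result was not tested further. ERK feedback genes then had 16 called higher with a median of 0.70, cytokines 8 with 1.13 and immediate early genes 15 with 0.41. NRF2 targets had 13 called lower with a median of -0.11. The nuclear respiratory genes, with a median length of 1591 bases, had 16 called lower with -0.12, and cytosolic ribosomal proteins 11 with -0.10. Mitochondrially encoded genes, short as well, had 10 called higher. With scaling by library size only, the median of all genes was -0.07, and calls split into 1126 higher and 1981 lower.

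Genes of cell growth and survival had calls in both directions. Death receptors and BCL2 family genes had 8 higher and 3 lower of 23, among them MCL1, BCL2L1 at 0.35 and PMAIP1 at 0.65 and the number higher was 5 without GFP w/o Cyss replicate 2. Growth arrest and p53 targets had 5 higher and 3 lower of 21, and the number higher ranged from 2 (without GFP w/o Cyss replicate 2) to 7 (without NRF2 w/o Cyss replicate 3). CDKN1A, the cell cycle inhibitor p21, had 1337, 1524 and 2296 in GFP cells and 2798, 3328 and 4253 in NRF2 cells w/o Cyss (interaction 1.0, standard error 0.205, adjusted p = 0.00524, or 1.40 without the pair that stood apart). GADD45B rose by 0.40 in GFP cells and had a response of -0.06 in NRF2 cells that was not called (adjusted p = 0.497). Replication and mitosis genes had 2 higher and 8 lower of 47, with RRM2 at 0.29 and PCNA at -0.26. The number lower ranged from 2 (without GFP w/o Cyss replicate 2) to 12 (without NRF2 w/o Cyss replicate 3) and was 12 with both libraries that stood apart left out. Canonical histones had 0 higher and 4 lower of 25, with HIST1H1C at -0.47.

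Further lists are given by their counts, to be read beside 8.97% higher and 5.59% lower over all genes. The Kruppel-like factors had 5 higher and 1 lower of 13, metallothioneins and zinc transporters 5 higher and 0 lower of 16 with MT2A at 0.54, osmolyte transporters 3 higher and 0 lower of 5 with the transcription factor NFAT5 at 0.48, and ABC transporters 5 higher and 1 lower of 30 with the cholesterol exporter ABCA1 at 0.93. The number higher was 3 without NRF2 with Cyss replicate 3 for Kruppel-like factors, 8 without NRF2 w/o Cyss replicate 3 for metallothioneins and 2 without GFP with Cyss replicate 1 for ABC transporters. Translation initiation factors had 5 higher and 0 lower of 53 with EIF5A2 at 0.58, so that 9.43% were higher beside 8.97% of all genes, and the number higher ranged from 3 (without GFP w/o Cyss replicate 2) to 8 (without GFP with Cyss replicate 2). Genes of ER chaperones and ERAD had 3 higher and 0 lower of 29 with the sensor ERN1 at 0.83, and cytosolic heat shock chaperones 1 higher and 2 lower of 24. Among ER genes the number higher rose to 7 without GFP w/o Cyss replicate 3. The mTORC1 brakes had 1 higher and 3 lower of 18, led by DDIT4 (the number lower was 1 without GFP with Cyss replicate 3), and methionine and cysteine metabolism 2 higher and 1 lower of 22 with MTAP, of methionine salvage, at 0.55. Serine and one-carbon enzymes had 1 higher and 1 lower of 16 with MTHFD2L at 0.86.

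Sterol and fatty acid synthesis had 3 higher and 3 lower of 33, collagens 3 higher and 3 lower of 32, interferon-stimulated genes 2 higher and 4 lower of 30, snoRNA host RNAs 0 higher and 5 lower of 19 with SNHG5 at -0.30, and numbered zinc finger genes 23 higher and 11 lower of 431. The shares were 9.09% on each side for sterol and fatty acid synthesis and 9.38% on each side for collagens. Zinc finger genes had 5.34% higher and 2.55% lower, beside 8.97% and 5.59% of all genes. This split reversed after the correction for length and GC content, with 17 zinc finger genes higher and 29 lower. It also reversed with scaling by library size only, with 12 higher and 26 lower. Without GFP w/o Cyss replicate 2, 0 interferon-stimulated genes and 1 snoRNA host RNA were called lower and 6 zinc finger genes higher. Without NRF2 w/o Cyss replicate 3, 8 snoRNA host RNAs were lower and 38 zinc finger genes higher. With both libraries that stood apart left out, 2 snoRNA host RNAs were lower, SNHG5 at -0.20. Autophagy and lysosome genes had 1 higher and 1 lower of 37, splicing factors 1 higher and 1 lower of 41 and mitochondrial aminoacyl-tRNA synthetases 1 higher and 0 lower of 17, with medians of 0.01, 0.03 and -0.05. No tubulin gene of 14 was called. Of the mesenchymal markers, CD44 at 0.41, ZEB1 at 0.35 and ZEB2 at 0.32 were called higher and TWIST1 at -0.30 lower (not called in 4 of the refits on 11 libraries), and none of the 8 luminal or 4 blood and endothelial markers tested was called. Together the 56 lists held 382 of the 2573 called genes, so 2191 were in no list. Clone names without a gene symbol made up 51 of the higher and 80 of the lower genes.

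Other motifs were searched on both strands of the promoter windows. The cyclic AMP response element TGACGTCA was held by 3.20% of all windows, 3.69% of those of higher and 4.01% of those of lower genes, and the TEAD site CATTCC by 10.8%, 11.4% and 12.8%. For each of the 7 motifs, including those given above, the shares among called genes lay within 3 percentage points of that of all windows.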

How the data were processed

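RNA-seq of 12 libraries of Hs 578T cells was analyzed. Per the labels and the study's methods, the authors aligned reads from one end with TopHat2 2.1.0 (build hg19). Exon reads were counted with HTSeq 0.11.2 in its intersection-nonempty mode, unstranded. The deposited files hold raw counts per gene symbol. The annotation version is not given in the sources used here. The 523 rRNA symbols, which took 0.304 to 0.366% of reads on genes, were left out, as were the 5 HTSeq counters, which held 15.9 to 17.1% of reads.

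With R 4.3.3 and edgeR 4.0.16, counts of all 12 libraries were normalized by TMM, and a gene was kept if any group averaged 10 or more normalized counts. The interaction and both responses were tested by edgeR's quasi-likelihood test in 1 fit with a coefficient per group, with Benjamini-Hochberg adjustment over all 17674 genes and calls at an adjusted p below 0.1. Normalized counts are scaled to the mean library, and values listed per group follow replicates 1 to 3. Pairs of replicates differed by more than counting error, their chi-square divided by its degrees of freedom ranging from 2.22 to 13.0.

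The genes described were drawn from NFE2L2, those named by the study from its RNA-seq, and by rule per direction the 10 called genes of smallest adjusted p and the 10 of largest difference (at least 50 normalized counts in the highest group, clone names left out), the 5 in each direction with the largest differences among those with opposite called responses, and up to 4 called members per list. Lists share genes. Members and lists were chosen with earlier results of these data known. Pseudogenes were dropped from lists given as symbol patterns. UGDH, FTL and the promoter examples were chosen after their values were seen. A few genes that the rule names are not reported here.

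Positions, lengths and GC content are from GENCODE 44 on GRCh37, in which 33529 of 55765 symbols matched as listed and 1915 by a newer name. Promoter sequences are RefSeq's on GRCh38.p14 and matched 10923 of the genes tested. No coordinates were converted between builds. Alternatives were DESeq2 1.42.0 size factors and Wald test, scaling by library size, other filters and thresholds, and rRNA genes kept. Others were the replicate number as a block, a correction for length and GC content, and each library left out. A further fit left out the pair that stood apart. That fit and the correction were chosen after the data were seen. Plots were drawn with Python 3.11.15 and matplotlib 3.10.9.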

Additional observations from a re-analysis of the deposited data

Results flagged for a closer look

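The interaction is itself the test of a difference between the responses of GFP and NRF2 cells, and by edgeR's quasi-likelihood test it set apart 1585 genes with a higher and 988 with a lower response in NRF2 cells. Among genes whose responses were called with opposite signs, the higher interactions of largest size were those of RGS17 (0.86), HIPK2 (0.64), ZNF267 (0.59), MEX3A (0.42) and SMIM13 (0.41). The lower ones were those of LYSMD4 (-0.65), NEAT1 (-0.60), SREBF1 (-0.44), AMDHD2 (-0.42) and MEGF6 (-0.40). For RGS17, HIPK2, AMDHD2 and MEGF6 the adjusted p of the response in GFP cells was 0.0979, 0.0881, 0.095 and 0.0861, near the threshold of 0.1. Groups of 3 libraries are too small for a test of single outlying libraries.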

How the results depend on the processing

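No called interaction among the genes chosen by rule, not all of which are described, changed sign under any alternative, and of these 227 genes 149 kept their call in every alternative on all 12 libraries and 172 in every refit on 11. A minimum size of 0.32 left 831 higher and 515 lower genes, 381 genes in the response of GFP cells and 2147 in that of NRF2 cells, and 546 amplified, 14 blunted and 786 opposite responses. An adjusted p under 0.05 left 463 lower genes, 598 in the response of GFP cells, 18 blunted and 909 opposite. Scaling by library size alone gave 1981 lower genes, so that 36.2% of called genes were higher against 61.6% with TMM. The correction for length and GC content gave 1571 genes in the response of GFP cells and 74 blunted responses. Leaving out single libraries gave 937 to 1970 higher genes, 410 to 1606 lower genes, 538 to 1548 in the response of GFP cells, 573 to 1049 amplified, 13 to 70 blunted and 760 to 2457 opposite. The lowest counts came without GFP w/o Cyss replicate 2 (blunted, without NRF2 with Cyss replicate 3) and the highest without NRF2 w/o Cyss replicate 3 (response of GFP cells, without NRF2 w/o Cyss replicate 1). DESeq2's Wald test called 1530 higher and 903 lower genes. With the replicate number as a block the counts were 1848 and 1218. Deviations of same-numbered libraries correlated from -0.06 to 0.14, above 0.1 in 2 of 18 pairs. Those of other pairs correlated from -0.16 to 0.10. From so few libraries it cannot be told whether equal numbers mark a shared day or culture. With 3 libraries a group, small differences in genes of low count are not resolved, and the spread between separate cultures is not known. In each case the cause was not tested.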
